A study of Homo sapiens with 12 samples.

Results

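The genes examined here encode 7 RNA-binding factors that direct the decay of mRNA: ZFP36, ZFP36L1 and ZFP36L2 of the ZFP36 (TTP) family, the Regnases ZC3H12A and ZC3H12C, and the Roquins RC3H1 and RC3H2. They were taken by symbol from the 58735 genes of the deposited table, and all 7 were among the 16046 genes that passed the filter on low counts. They were chosen with earlier results of the same libraries in view, so their values below are a description and not independent support for any pattern. The RNA came from tumor-associated macrophages (TAMs), which were made from THP-1, a human monocytic leukemia cell line, with the phorbol ester PMA. All TAMs were cocultured with AsPC-1, a human pancreatic cancer cell line, across a Transwell membrane. In the control group the AsPC-1 cells carried an empty vector, and in the OE-MMP28 group they overexpressed MMP28. The anti-IL-8 and anti-VEGFA groups received a neutralizing antibody on top of OE-MMP28, and no group is named for a control antibody. Each of the 4 groups held 3 libraries. The study's methods speak of triplicate samples for sequencing and, for cell experiments in general, of independent repeats, but do not say that the libraries of a group came from separate cultures. The p-values therefore measure the spread between these libraries, which may be technical.

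ZFP36 family proteins bind AU-rich elements in the 3′ untranslated region (UTR) of cytokine and growth factor mRNAs through CCCH zinc fingers, and they recruit the CCR4-NOT deadenylase. The Regnases cleave stem-loops in inflammatory mRNAs with a PIN-type RNase domain, and Regnase-1 (ZC3H12A) works with the helicase UPF1. The Roquins bind similar stem-loops and also recruit deadenylases. In macrophages these factors limit the output of TNF, IL-6 and other inflammatory mediators, and the ZFP36 protein is known to act on its own mRNA.

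Several of these mRNAs carry the AU-rich letters that ZFP36 proteins recognize. In GENCODE 29 (GRCh38), in the longest basic protein-coding transcript of each gene, the nonamer TTATTTATT stands in the 3′ UTR of 5 of the 7 genes. The sites are shown because they are where a decay factor could meet the mRNA of another member or its own. The sequences are the transcript strand from 5′ to 3′, with the nonamer in capitals.
ZFP36, chr19:39409196-39409224, plus strand: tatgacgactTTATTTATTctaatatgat
ZFP36L1, chr14:68788077-68788105, minus strand: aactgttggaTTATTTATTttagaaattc
ZFP36L2, chr2:43223448-43223476, minus strand: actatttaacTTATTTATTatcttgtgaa
ZC3H12C, chr11:110170157-110170185, plus strand: tttacacccaTTATTTATTagagatattt
RC3H2, chr9:122849199-122849227, minus strand: cttagttaacTTATTTATTtctattttat
RC3H2, chr9:122847702-122847730, minus strand: tgaagacattTTATTTATTtcactctgta
Of 12978 tested genes with such a 3′ UTR, 9.31% hold this nonamer, 35.1% hold the heptamer TATTTAT and 72.2% hold the pentamer ATTTA, each searched on the transcript strand. The shorter motifs lie within the longer ones, so their counts overlap. RC3H1 holds 2 heptamers and no nonamer, and ZC3H12A holds none of the 3 motifs. The pentamer occurs 5 times in ZFP36, 8 times in ZFP36L1 and 5 times in ZFP36L2, but 27 times in ZC3H12C, 21 times in RC3H1 and 25 times in RC3H2, whose 3′ UTRs are long. Those 3 UTRs measure 6102, 7507 and 5071 bases, against 713 in ZFP36 and a median of 1283. A match describes letters and does not show a bound site.

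Library totals lay between 15852346 and 18701195 counts, at which 3 counts correspond to 0.160 to 0.195 CPM (a count relative to its TMM-scaled library total), far below the lowest member value. No count of MMP28 was found in any of the 12 libraries (0 counts), which allows up to 0.195 CPM, so the overexpression in the partner cells leaves no check in this RNA. Of 12 macrophage markers, 11 had at least 10 counts in every library. The exception was CD68, a standard macrophage marker, at 0 to 5 counts. Of 12 epithelial markers for AsPC-1, 2 did, EPCAM was at 0 throughout, and the summed level lay between 7.66 and 15.6 CPM. Mitochondrial genes took 6.92% to 17.8% of the counts, the most in anti-VEGFA replicate 2. The OE-MMP28 libraries stood apart from one another in how counts followed base composition. Per 10 percentage points of gene GC content, relative counts moved by -0.35 on the log2 scale in OE-MMP28 replicate 2 and by 0.0026 in replicate 3. The control libraries moved by -0.14 to -0.064 and the anti-IL-8 libraries by 0.086 to 0.23. This touches the long, AU-rich members described further down, and fits with GC and length offsets are given beside them. Those fits were added after values had been seen.

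Per length, ZFP36L2 was by far the most abundant member. Its level in control TAMs was 273 ± 7.90 FPKM (fragments scaled by gene length and library size, as deposited by the authors; mean ± SD, n = 3). ZC3H12A (49.0 ± 5.55) and ZFP36L1 (48.2 ± 2.79) followed, with ranges that overlapped. ZC3H12C stood at 11.3 ± 0.662 FPKM and ZFP36, the founding member of its family, at 9.48 ± 0.662, and their libraries did not overlap. RC3H1 (5.73 ± 0.474) and RC3H2 (3.35 ± 0.230) were lowest. In both antibody groups ZFP36 lay above ZC3H12C, in the reverse of their order in control TAMs. The levels were 14.6 ± 1.29 against 10.1 ± 1.07 FPKM with anti-VEGFA and 11.5 ± 0.454 against 8.44 ± 0.750 with anti-IL-8. Under OE-MMP28 alone the genes overlapped, at 9.85 ± 2.94 FPKM for ZFP36 and 12.1 ± 2.89 for ZC3H12C. These levels are not corrected for GC content, in which the genes differ. With GC and length offsets the log2 change from control with anti-IL-8 was -0.0053 for ZFP36 and -0.024 for ZC3H12C. With anti-VEGFA it was 0.45 and -0.00082.

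**Figure D1:**
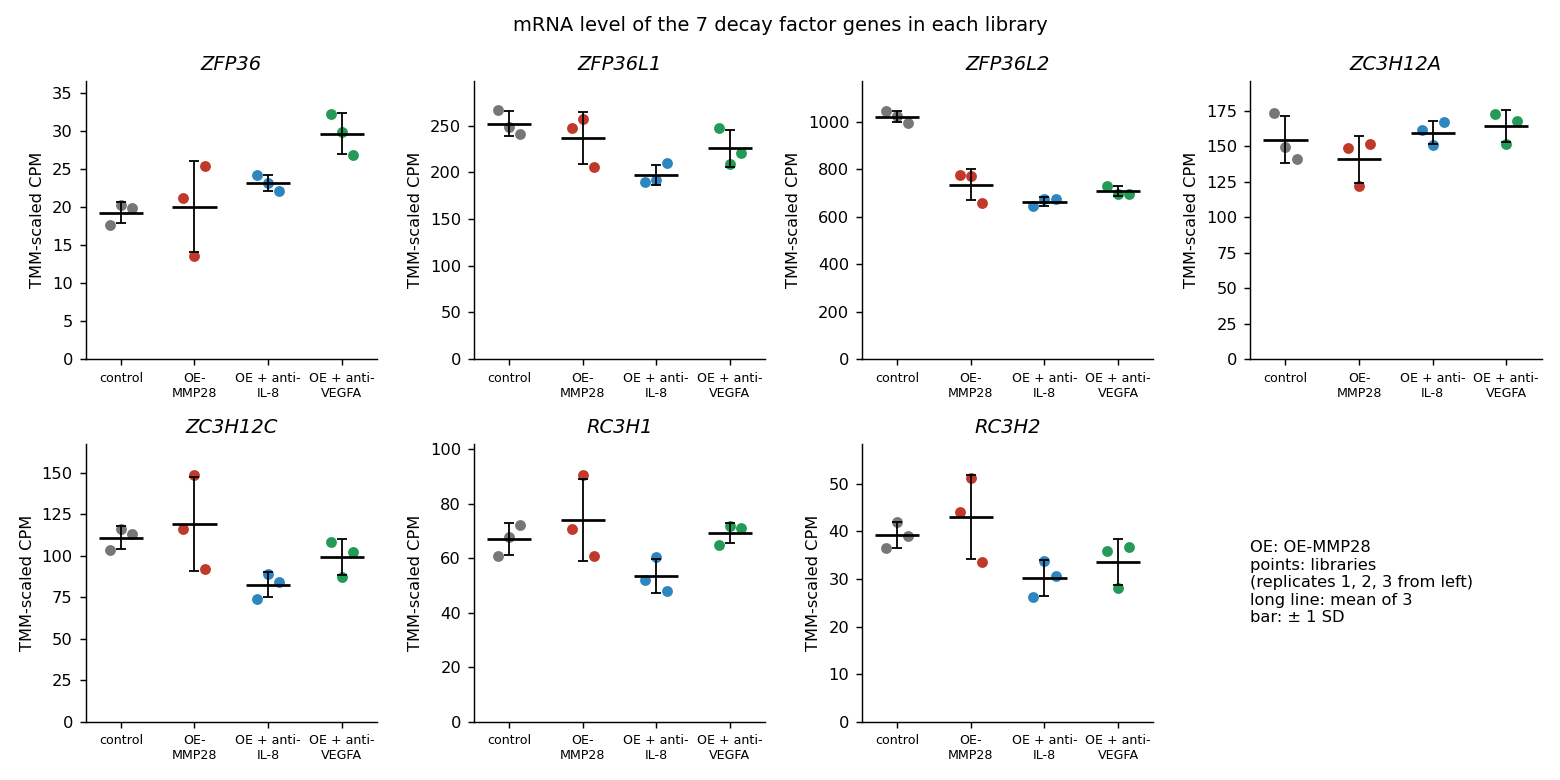
TMM-scaled CPM of the 7 genes (y axis, from 0) in the 3 libraries of each group (x axis), with the mean as a long line and ± 1 SD as a bar. The 3 control libraries of ZFP36L2 lie above the other 9, and the 3 anti-VEGFA libraries of ZFP36 lie above the other 9.

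ZFP36L2 was lower in every group cocultured with OE-MMP28 cells than in control TAMs. The control libraries held 1044, 1024 and 996 CPM, and the OE-MMP28 libraries 776, 771 and 659. The level was 644, 673 and 675 CPM with anti-IL-8, and it was 731, 698 and 694 under anti-VEGFA. All 9 OE-MMP28 libraries, with or without an antibody, lay below the lowest control, and the antibody groups fell within or near the range of OE-MMP28 alone. ZFP36L2 fell by 0.47 on the log2 scale in OE-MMP28 TAMs (SE 0.12, adjusted p = 0.031, quasi-likelihood test of edgeR, adjusted by Benjamini-Hochberg over all tested genes). It was the only member past the adjusted threshold of 0.05 in this comparison. Of all tested genes, 3.16% passed it (2.64% as lower), 14.5% passed at an unadjusted p under 0.05, and in 11.6% the OE-MMP28 libraries lay wholly below control. Against control, ZFP36L2 also fell by 0.62 with anti-IL-8 (SE 0.12, edgeR adjusted p = 0.0022) and by 0.53 under anti-VEGFA (SE 0.12, edgeR adjusted p = 0.0083). In these comparisons the libraries lay wholly below control in 24.4% and 17.4% of all tested genes. All 3 comparisons share the control libraries. The call in OE-MMP28 TAMs was narrow. It was kept in 14 of 23 alternative fits, with an adjusted p of up to 0.14. It was lost without any 1 of the 3 controls, without OE-MMP28 replicate 1 or 3 and without anti-IL-8 replicate 1 or 3. Both antibody calls were kept in all 23.

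Neither antibody moved ZFP36L2 past the threshold from its level under OE-MMP28 alone. The log2 difference was -0.15 with anti-IL-8 (-0.38 to 0.087, an interval of 2 SE on either side). It was -0.06 for anti-VEGFA (-0.29 to 0.18). With GC and length offsets the anti-IL-8 difference was -0.36 (edgeR adjusted p = 0.32).

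ZFP36L1, the close paralog of ZFP36L2, was lowest with anti-IL-8. Its control libraries held 267, 248 and 241 CPM, and the OE-MMP28 libraries 247, 258 and 206. The anti-IL-8 libraries held 190.0, 192 and 210, and the anti-VEGFA libraries 248, 209 and 220. The anti-IL-8 libraries lay wholly below control but overlapped with OE-MMP28 because of OE-MMP28 replicate 3. ZFP36L1 fell by 0.35 against control with anti-IL-8 (SE 0.12, edgeR adjusted p = 0.048). This call was kept in 10 of 23 alternatives, with an adjusted p of up to 0.22, and was lost without any 1 of the controls or of the anti-IL-8 libraries, and without OE-MMP28 replicate 1 or anti-VEGFA replicate 2 or 3. With GC and length offsets it was -0.33 (edgeR adjusted p = 0.030). Together with ZFP36L2 this makes 2 of 7 members past the threshold in that comparison, where 20.7% of all tested genes passed (10.9% as lower, and 35.9% at an unadjusted p under 0.05, at which 5 members were lower). Against OE-MMP28 alone the log2 difference was -0.27 (SE 0.12, edgeR adjusted p = 0.16).

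ZFP36 itself, which is induced within minutes of many stimuli, was highest with anti-VEGFA. Control libraries held 17.7, 20.3 and 19.96 CPM, on 300 to 351 counts. OE-MMP28 libraries were spread widely, at 21.2, 13.6 and 25.4 CPM. The anti-IL-8 libraries held 24.3, 23.2 and 22.2 CPM and the anti-VEGFA libraries 32.3, 29.9 and 26.9. The anti-VEGFA libraries lay above all others, and the anti-IL-8 libraries lay above control but within the OE-MMP28 range (23.4% of all tested genes lay wholly above control with anti-IL-8). ZFP36 rose by 0.62 on the log2 scale with anti-VEGFA against control (SE 0.17, edgeR adjusted p = 0.031), which was kept in 18 of 23 alternatives with an adjusted p of up to 0.12. It was lost without any 1 of the 3 controls and without anti-VEGFA replicate 1. With ZFP36L2, 2 of 7 members passed in this comparison, against 11% of all tested genes (5.6% as higher, and 27% at an unadjusted p under 0.05). In 16.9% of all tested genes the anti-VEGFA libraries lay wholly above control, and in 9.11% they lay wholly above OE-MMP28.

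Against OE-MMP28 alone, ZFP36 was 0.56 higher with anti-VEGFA (SE 0.17), but the edgeR adjusted p was 0.12. With GC and length offsets it was 0.38 higher (SE 0.12, edgeR adjusted p = 0.20). In all, 0 of 7 members passed in edgeR's test of this comparison without offsets, against 0.343% of all tested genes. DESeq2 also called 0, against 2.67%. At an unadjusted p under 0.05 there were 2, ZFP36 as higher and RC3H2 as lower, where 18.8% of all tested genes passed. The result depended on single libraries. With each of the 12 libraries left out in turn, the ZFP36 difference ran from 0.35 to 0.77. The edgeR adjusted p was up to 0.38 in these fits. Without OE-MMP28 replicate 3, the highest of its group, the ZFP36 difference was 0.77 with an edgeR adjusted p of 0.020, and RC3H2 also passed, at 0.044, in a fit in which 8.48% of all tested genes passed. Between the antibodies ZFP36 was 0.35 higher with anti-VEGFA (0.0056 to 0.70, edgeR adjusted p = 0.35).

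**Figure D2:**
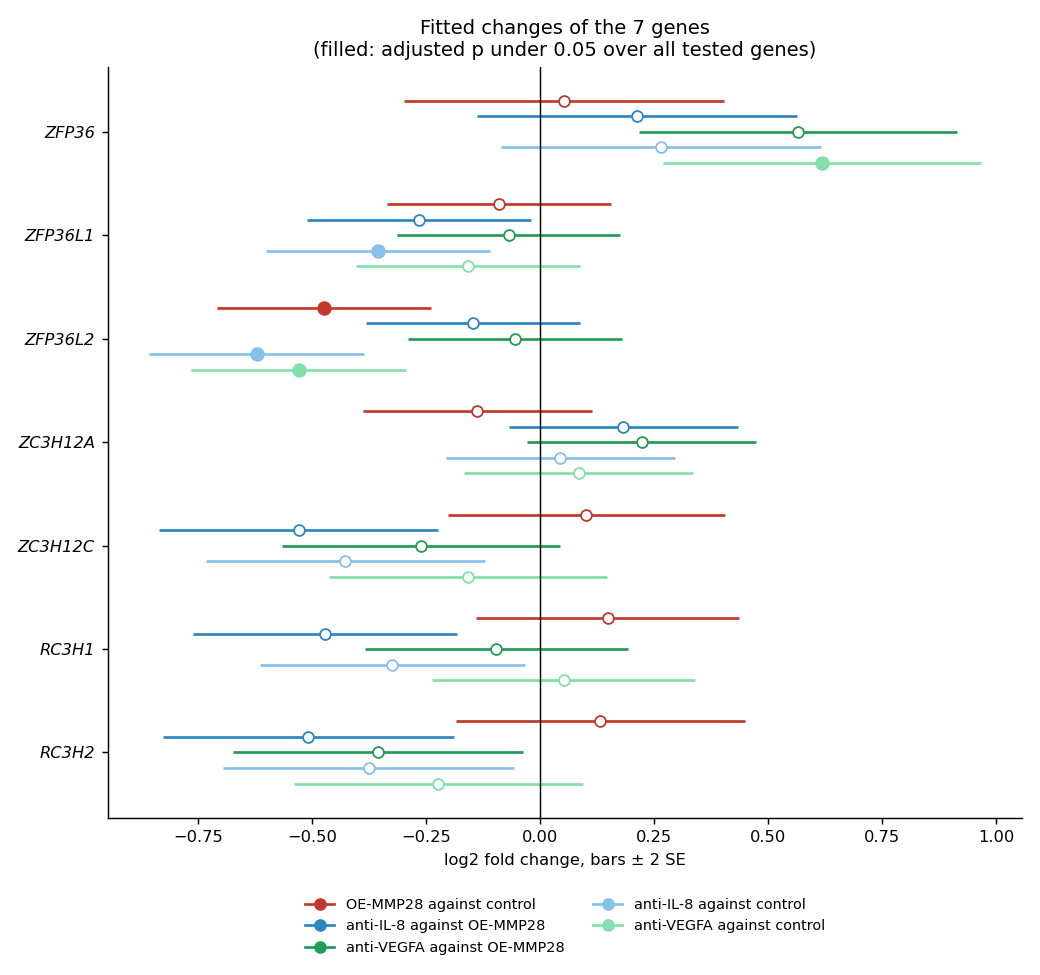
Fitted log2 fold changes (x axis) of the 7 genes (y axis) in 5 comparisons, with bars of 2 SE on either side and filled points where the adjusted p was under 0.05. Filled points are those of ZFP36L2 in the 3 comparisons with control, ZFP36L1 with anti-IL-8 and ZFP36 with anti-VEGFA, both against control.

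ZC3H12A (Regnase-1) passed in none of the 6 comparisons in edgeR's test, at an adjusted or an unadjusted p, or in DESeq2. Its libraries held 174, 150 and 141 CPM in control TAMs and 149, 122 and 152 under OE-MMP28. They held 162, 151 and 167 with anti-IL-8, and 173, 151 and 168 with anti-VEGFA. All 4 groups overlapped. The fitted log2 differences ran from -0.14 in OE-MMP28 against control to 0.22 with anti-VEGFA against OE-MMP28, with an SE of 0.13 each, so that changes of up to 0.39 lower and 0.47 higher remained within 2 SE. ZC3H12A is GC-rich, with 61.2% GC over its exons, and its direction depended on the correction for composition. With anti-IL-8 against control the log2 difference of 0.04 became -0.31 with GC and length offsets (edgeR adjusted p = 0.048).

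ZC3H12C (Regnase-3), RC3H1 (Roquin-1) and RC3H2 (Roquin-2) moved together across libraries and were lowest with anti-IL-8. ZC3H12C held 103, 116 and 113 CPM in control TAMs and 116, 149 and 92.1 under OE-MMP28. With anti-IL-8 it held 74.2, 88.9 and 84.1, and with anti-VEGFA 109, 87.1 and 102. The anti-IL-8 libraries lay below every control and OE-MMP28 library, though by a small gap to OE-MMP28 replicate 3, and 15.3% of all tested genes lay wholly below OE-MMP28 in this way. RC3H1 held 60.6, 67.6 and 72.3 CPM in control TAMs and 70.9, 90.5 and 60.8 under OE-MMP28. With anti-IL-8 it held 52.1, 60.3 and 47.8, and with anti-VEGFA 65.0, 71.9 and 71.0. Its anti-IL-8 libraries also lay below all others, but only just, with 60.3 CPM at the highest against 60.6 in control replicate 1. RC3H2 held 36.6, 42.0 and 39.1 CPM in control TAMs and 44.1, 51.2 and 33.6 under OE-MMP28. With anti-IL-8 it held 26.2, 33.9 and 30.6, and with anti-VEGFA 35.9, 28.1 and 36.7. Its anti-IL-8 libraries lay below control but overlapped with OE-MMP28 replicate 3.

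Against OE-MMP28 alone, the anti-IL-8 differences were -0.53 for ZC3H12C (SE 0.15, edgeR adjusted p = 0.063), -0.47 for RC3H1 (SE 0.14, edgeR adjusted p = 0.067) and -0.51 for RC3H2 (SE 0.16, edgeR adjusted p = 0.069). None passed, as 0% of all tested genes did in edgeR's test of this comparison. At an unadjusted p under 0.05, 4 of 7 members were lower (these 3 and ZFP36L1), where 29.3% of all tested genes passed (15.9% as lower), and DESeq2 called 3 at the adjusted threshold, together with 13.2% of all tested genes. Without OE-MMP28 replicate 3 all 4 passed in edgeR's test, and so did 4125 genes in all (25%). Against control the same 3 genes were 0.32 to 0.43 lower with anti-IL-8 on the log2 scale, and the smallest edgeR adjusted p was 0.055, for ZC3H12C. With anti-VEGFA none of the 3 passed in either comparison, and between the antibodies RC3H1 was 0.38 higher with anti-VEGFA (SE 0.14, edgeR adjusted p = 0.25). Across all 7 members, 0 passed between the antibodies, where 0.199% of all tested genes did. RC3H1 alone passed at an unadjusted p under 0.05, which 15% of all tested genes did, and DESeq2 called 0, against 1.53%. The anti-VEGFA libraries lay wholly above the anti-IL-8 libraries in ZFP36, ZFP36L2 and RC3H1, as in 11.3% of all tested genes, and overlapped with them in the other members.

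These 3 genes share length and base composition. Their exons span 9719, 11508 and 11545 bases, above 89.0% to 93.6% of tested genes, and their GC content is 36.7%, 38.7% and 37.8%, above only 4.71%, 10.9% and 7.86%. ZFP36, by contrast, spans 2010 bases at 57.3% GC. OE-MMP28 replicate 2, with the steepest fall of counts toward GC-rich genes, was the highest of all libraries for each of the 3. With GC and length offsets the anti-IL-8 differences from OE-MMP28 were -0.12 for ZC3H12C, -0.08 for RC3H1 and -0.11 for RC3H2 (edgeR adjusted p from 0.73 to 0.83), and those from control lay between -0.02 and 0.089. A change that follows GC content or length is taken out by the offsets whatever its source, which was not tested. ZFP36L2 kept its falls against control under the same offsets, by 0.43 under OE-MMP28 (edgeR adjusted p = 0.038), by 0.78 with anti-IL-8 (2.9e-04) and by 0.59 under anti-VEGFA (0.0031). ZFP36 with anti-VEGFA against control was 0.45 (edgeR adjusted p = 0.022).

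**Figure D3:**
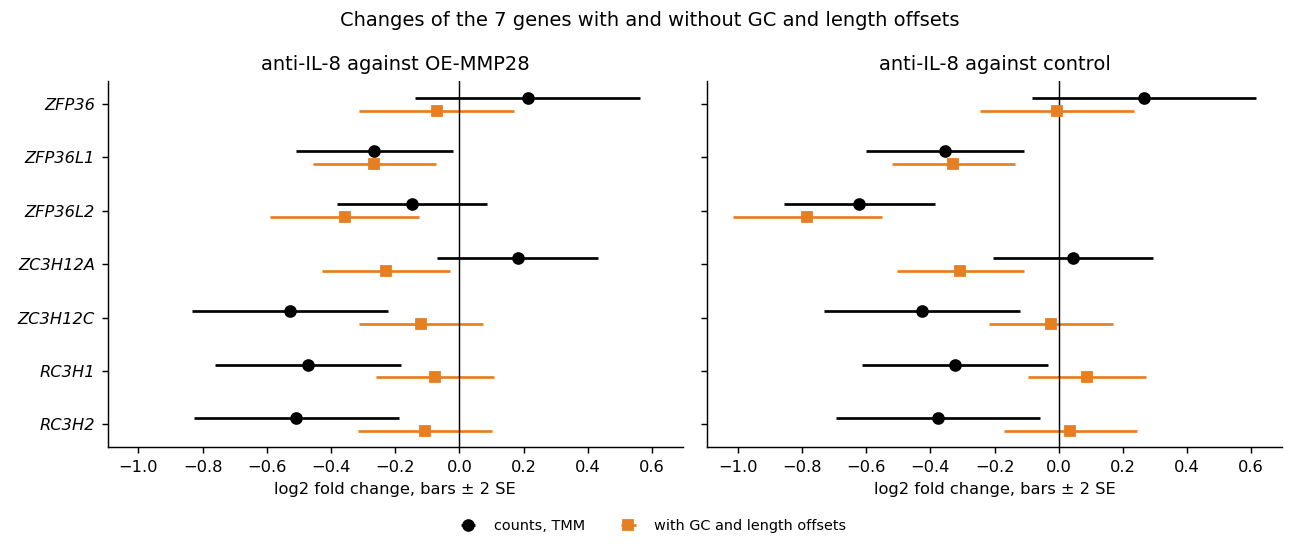
Log2 fold changes (x axis, bars of 2 SE on either side) of the 7 genes (y axis) with anti-IL-8, from counts (circles) and with GC and length offsets (squares). ZC3H12C, RC3H1 and RC3H2 move to near 0 with the offsets, ZC3H12A moves below 0, and ZFP36L2 stays below 0 against control.

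The same shift appeared over all genes grouped by the AU-rich letters of their 3′ UTR, a grouping chosen after values had been seen. With anti-IL-8 against OE-MMP28, the median log2 fold change was 0.28 over 3610 genes without the pentamer and -0.24 over 1208 genes with the nonamer, against -0.006 over all 12978. Genes with the nonamer have long 3′ UTRs (median 2976 bases, against 393 without the pentamer). The offsets take out any difference between such sets that follows GC content or length, whatever its source. With GC and length offsets the medians were 0.033 and -0.014. With anti-VEGFA against OE-MMP28 they were 0.19 and -0.094 before the offsets and -0.0022 and -0.016 with them. In OE-MMP28 against control they were 0.049 and 0.0085 before the offsets.

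**Figure D4:**
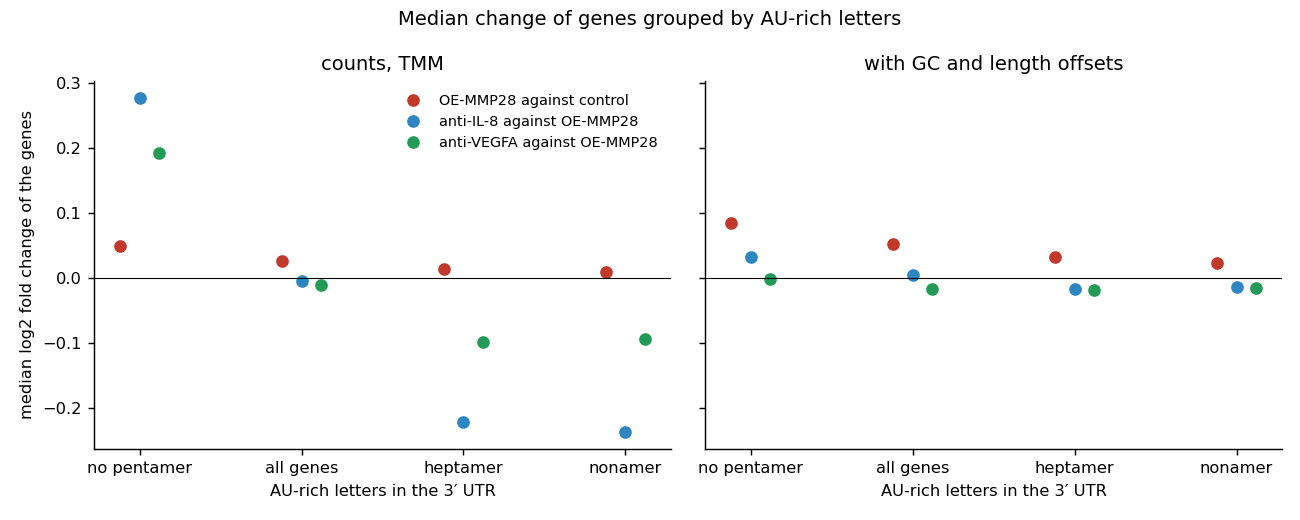
Median log2 fold change (y axis) of genes without the pentamer, all genes, and genes with the heptamer or the nonamer (x axis), from counts (left) and with GC and length offsets (right). The medians with anti-IL-8 spread from 0.28 to -0.24 from counts and from 0.033 to -0.017 with the offsets.

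Pearson's r of log2 CPM was taken across the 12 libraries, which fall into the 4 groups. Libraries of a group also differed in how counts followed GC content, which ZC3H12C, RC3H1 and RC3H2 have in common. The r was 0.97 between ZC3H12C and RC3H2, 0.82 between ZC3H12C and RC3H1 and 0.84 between ZFP36L1 and ZC3H12C. ZFP36 ran the other way from RC3H2 (r = -0.65). Among 8251 protein-coding genes with a mean of at least 10 CPM, those most like ZFP36L2 included SAMD9L and NCOA7 (r of 0.99 each, and 0.88 and 0.80 once each group's mean was removed). Those most like ZFP36 were SUPT5H, CCDC88B and PER1 (0.94 to 0.95). ZFP36L1 was most like GTF2I, NFATC3 and NCOA3, and ZC3H12A most like ECE1, TMEM132A and SEC14L2. For ZC3H12C the nearest were DDX21, VPS13C and SPAG9, for RC3H1 GGNBP2, TPP2 and ANKRD13C, and for RC3H2 SPAG9, GCC2 and DDX21. For these 5 members r lay between 0.94 and 0.98.

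Genes that work with or beside the 7 factors were followed in 7 lists. The lists overlap, so a gene can be counted in more than 1 of them. Their counts stand against the shares of all tested genes that passed, 3.16% in OE-MMP28 against control, 20.7% with anti-IL-8 against control and 11% with anti-VEGFA against control. In OE-MMP28 against control 14.5% passed at an unadjusted p under 0.05, and 4.14% passed in DESeq2. Of 32 genes of the deadenylation, decapping and decay machinery, 1 passed in OE-MMP28 against control, and it fell: XRN1, the main cytoplasmic 5′ to 3′ exonuclease. The median log2 change of the list was 0.0074, against 0.022 over all tested genes. XRN1 went from 51.8 ± 8.86 CPM in control to 25.2 ± 4.67 in OE-MMP28 (log2 fold change -1.03, SE 0.16, edgeR adjusted p = 4.1e-04). Its level was 18.4 ± 2.25 CPM with anti-IL-8, against 22.5 ± 0.732 for anti-VEGFA, and it passed against control in all 23 alternatives in each of the 3 groups. With anti-IL-8 against control, 1 gene of this list was higher and 8 were lower, with a list median of -0.21 against -0.02 over all tested genes. The named ones were UPF1 (0.48), the deadenylase adaptor TOB1 (-0.68) and the decapping activator DCP1A (-0.89). With anti-VEGFA against control 2 were higher and 3 lower. UPF1 (0.54) and TOB2 (0.54) rose, and DCP1A (-0.61) and PATL1 (-0.52) fell with XRN1. With GC and length offsets the UPF1 values were 0.24 (edgeR adjusted p = 0.067) and 0.30 (0.025).

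Another list of 18 genes, all outside the 7, held mostly relatives of the Regnases and other CCCH zinc finger proteins. It also held ARID5A, which opposes Regnase-1, and MEX3C, which are neither. Of the 18, 3 passed in OE-MMP28 against control, each lower. The log2 change was above 0 for 8 of the 18, with a list median of -0.08 against 0.022 over all tested genes. PARP12 went from 79.7 ± 7.90 to 29.6 ± 1.65 CPM (log2 fold change -1.42, SE 0.13, edgeR adjusted p = 1.1e-06). N4BP1, a PIN domain RNase related to the Regnases, went from 90.5 ± 6.84 to 50.3 ± 4.37 CPM (-0.84, SE 0.12, edgeR adjusted p = 1.4e-04). ZC3HAV1 (ZAP), which binds CpG-rich viral RNA, went from 133 ± 12.4 to 83.1 ± 17.8 CPM (-0.68, SE 0.14, edgeR adjusted p = 0.0097). PARP12 and ZC3HAV1 are known as interferon-induced genes. The same 3 were also lower than control with each antibody, by 0.85 to 1.41 on the log2 scale, and ZC3HAV1 missed the threshold in OE-MMP28 TAMs without control replicate 2 (edgeR adjusted p = 0.078). Against OE-MMP28 alone 0 genes of the list passed in edgeR's test. At an unadjusted p under 0.05 there were 3 higher and 5 lower with anti-IL-8, where 29.3% of all tested genes passed. With anti-VEGFA there were 2 higher and 1 lower, where 18.8% passed. DESeq2 called 2 and 0, and it called 13.2% and 2.67% of all tested genes.

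Among 18 AU-rich binding proteins, a list that includes the 3 ZFP36 genes, ZFP36L2 was the only one to pass in OE-MMP28 against control. With anti-IL-8 against control 4 rose and 7 fell. HNRNPAB (0.48), PCBP2 (0.44) and HNRNPC (0.42) rose, passing in 17, 15 and 10 of 23 alternatives. IGF2BP2, which protects bound mRNAs, fell by 0.56 and PUM2 by 0.48, and PUM2 was at -0.14 with GC and length offsets (edgeR adjusted p = 0.33). With anti-VEGFA against control, ZFP36 and ZFP36L2 were the 2 that passed. A further list held kinases, phosphatase subunits, proteases, 14-3-3 proteins and other factors known to act on ZFP36 or Regnase-1. Of its 25 tested genes, 0 passed in OE-MMP28 against control in edgeR's test (1 at an unadjusted p under 0.05, and 0 in DESeq2). With anti-IL-8 against control 2 rose and 3 fell. PPP2R1A, a scaffold subunit of the phosphatase PP2A, rose by 0.70 on the log2 scale, and IRAK1 by 0.58. CHUK fell by 0.66, MALT1, the protease that cleaves Regnase-1, by 0.51, and the 14-3-3 gene YWHAZ by 0.35. With the offsets IRAK1, CHUK, MALT1 and YWHAZ no longer passed (edgeR adjusted p from 0.10 to 0.94). With anti-VEGFA against control MAPK13 rose by 0.53 (passing in 14 of 23 alternatives) and the 14-3-3 gene YWHAQ fell by 0.43 (in 17 of 23). With the offsets YWHAQ was at -0.27 (edgeR adjusted p = 0.13).

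Transcripts that these factors are known to bind moved in both directions. Of 34 AU-rich element transcripts, a list that includes ZFP36 itself, 2 rose and 2 fell in OE-MMP28 against control. The median log2 change was -0.0041. CSF2, which encodes GM-CSF, went from 5.12 ± 0.333 to 10.4 ± 2.26 CPM (log2 fold change 1.00, SE 0.17, edgeR adjusted p = 0.0017), and the chemokine CCL4 rose by 0.79 (0.039, passing in 13 of 23 alternatives and lost without any 1 of the controls). LIF fell from 53.3 ± 11.9 to 18.3 ± 4.53 CPM (-1.53, SE 0.28, edgeR adjusted p = 0.0024), and SERPINB2 fell by 1.20 (0.0030). Against control, 7 of the 34 rose and 9 fell with anti-IL-8, and 5 rose and 7 fell with anti-VEGFA. In these comparisons 20.7% and 11% of all tested genes passed in either direction. ZFP36 is 1 of the 5 that rose with anti-VEGFA. CSF1 (0.81), CCL3 (0.98) and CSF2 (1.29) rose most with anti-IL-8, and SERPINB2 (-1.71), LIF (-1.63) and PTGS2 (-1.25) fell most. With anti-VEGFA, CCL3 (0.87), CCL4 (0.90) and IER3 (0.91) rose most, while FOS (-1.34), DUSP1 (-1.04) and SERPINB2 (-0.94) fell most. Against OE-MMP28 alone FOS passed with anti-VEGFA, lower by 1.05 (edgeR adjusted p = 0.010).

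Of 15 tested stem-loop transcripts of the Regnases and Roquins, which include ZC3H12A, 0 passed in OE-MMP28 against control in edgeR's test, with 1 at an unadjusted p under 0.05 and 0 in DESeq2. With anti-IL-8 against control 2 rose, the NF-kB regulator NFKBID (0.56) and IER3 (0.71), and 3 fell, PTGS2, NFKBIZ (-0.72) and CXCL2 (-0.53). With GC and length offsets NFKBID was at 0.19 (edgeR adjusted p = 0.24) and CXCL2 at -0.45 (0.062). CXCL2 passed in 13 of 23 alternatives. With anti-VEGFA against control 4 rose and 0 fell, among them NFKBID (0.74) and TNF (0.69, edgeR adjusted p = 0.048, passing in 8 of 23 alternatives). The list median was 0.085 there, against 0.0013 over all tested genes. PTGS2, which encodes the prostaglandin synthase COX-2, is in both the AU-rich and the stem-loop list, as are TNF, NFKBIZ, IER3, CXCL2 and others. PTGS2 stood at 101 ± 15.5 CPM with anti-IL-8, against 240.2 ± 48.6 in control TAMs, 196 ± 32.3 under OE-MMP28 and 240.2 ± 57.4 with anti-VEGFA.

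ZFP36 belongs to the immediate early genes, and the 27 genes of that list moved in both directions. In OE-MMP28 against control, 0 rose and 2 fell, ATF3 (-0.51) and NR4A3 (-0.71), the latter passing in 9 of 23 alternatives. With anti-VEGFA against OE-MMP28, NR4A1 rose by 1.38 (SE 0.22, edgeR adjusted p = 0.012) while FOS fell by 1.05 and FOSB by 1.29 (0.038). These calls passed in 20, 20 and 12 of 23 alternatives. NR4A1 missed the threshold without OE-MMP28 replicate 2 (0.085), FOS without OE-MMP28 replicate 1 (0.068), each of them without anti-VEGFA replicate 1 (0.058), and FOSB without any 1 of the anti-VEGFA libraries or without OE-MMP28 replicate 1 or 2. Against control, 5 rose and 8 fell with anti-VEGFA, and 3 rose and 10 fell with anti-IL-8. IER2 rose by 0.85 and NR4A1 by 1.28 with anti-VEGFA, together with ZFP36, whereas FOSB fell by 2.02. With anti-IL-8 IER3 (0.71), IER2 (0.69) and IER5 (0.53) rose, and NR4A2 (-1.54), FOSB (-1.44) and NR4A3 (-1.12) fell. IER2 was at 0.34 there with GC and length offsets (edgeR adjusted p = 0.060). DUSP1, which encodes the phosphatase that inactivates p38 and JNK, went from 323 ± 20.1 CPM in control to 157 ± 28.9 with anti-VEGFA.

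**Figure D5:**
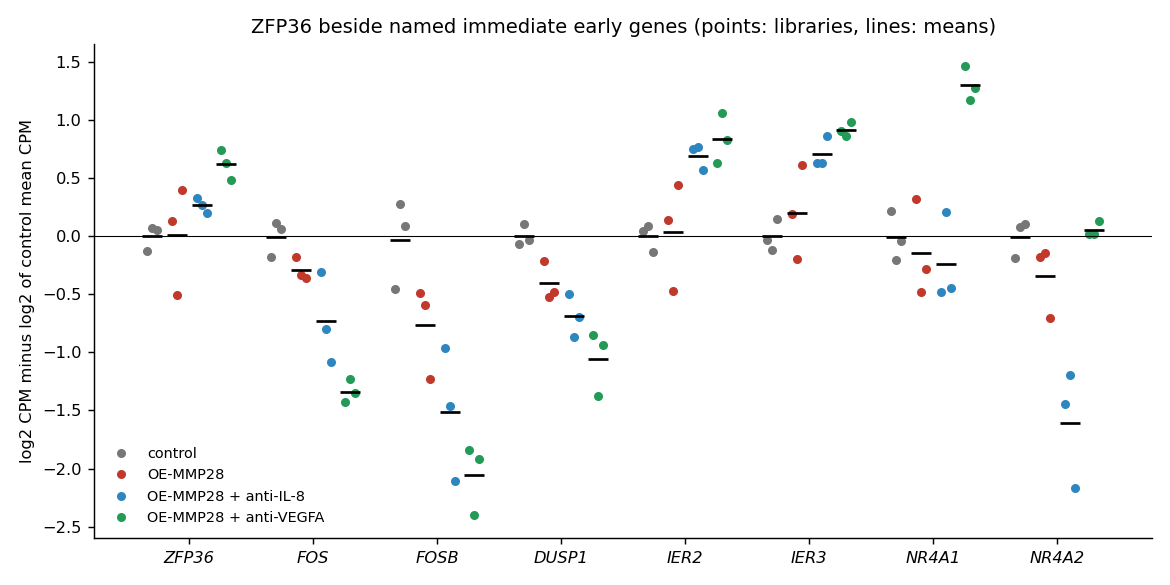
Log2 CPM of each library minus the log2 of the control mean (y axis) for ZFP36 and 7 immediate early genes (x axis), colored by group, with short lines for group means. With anti-VEGFA, ZFP36, IER2, IER3 and NR4A1 lie above the control mean in all 3 libraries, while FOS, FOSB and DUSP1 lie below it.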

How the data were processed

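RNA-seq of 12 TAM libraries was analysed as deposited. Per the submitters' processing notes, the authors used HISAT2 2.0.5 and featureCounts 1.5.0-p3. The deposited table gives counts per gene and FPKM for 58735 genes, whose coordinates match GENCODE 29. Whether counting used strand is not given in the sources used here. The table also holds 30 columns of the authors' comparisons (group means, fold changes, p-values), which were not used. Counts were fitted in R 4.3.3 with edgeR 4.0.16 (filterByExpr, TMM, 1 coefficient per group, quasi-likelihood test, prior count of 2). Benjamini-Hochberg adjustment ran over 16046 genes, with a threshold of 0.05. An SE is the size of the log2 fold change over the square root of its F statistic.

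The members and gene lists were chosen with earlier results of these data known. The rule for names took the 7 members. From each list and comparison it took at most 3 genes per direction with the largest change past the threshold, if the higher group averaged 50 counts or more. It also took the 3 genes most alike to each member. One gene that this rule took is not reported here. Alternatives were DESeq2 1.42.0, limma 3.58.1 (voom), FPKM on the log2 scale with a pseudocount of 1 or 0.1, library totals in place of TMM, other filters, 2-group fits, a replicate block, each library left out and, added after values were seen, GC and length offsets. The method was tested on simulated data. Figures used Python 3.11.15, pandas 2.3.3 and matplotlib 3.10.9.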

Additional observations from a re-analysis of the deposited data

Results flagged for a closer look

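In 3 named genes the effects of the antibodies, both measured on top of OE-MMP28, differed by edgeR's quasi-likelihood test of the difference itself with Benjamini-Hochberg adjustment. NR4A2, an orphan nuclear receptor, was 1.59 higher with anti-VEGFA than with anti-IL-8 on the log2 scale (SE 0.20, adjusted p = 0.0023), at 34.9 ± 1.60 against 11.5 ± 3.67 CPM (n = 3 each). NR4A1, its paralog, was 1.48 higher (SE 0.23, adjusted p = 0.0075), at 9.71 to 11.9 against 3.09 to 4.98 CPM. Without anti-IL-8 replicate 1 or 3 its adjusted p was 0.093 or 0.12. PTGS2 was 1.26 higher (SE 0.19, adjusted p = 0.0065), with a largest adjusted p of 0.093 over 23 alternatives, and it missed the threshold without anti-IL-8 replicate 1 or 3 or anti-VEGFA replicate 3. The 3 anti-VEGFA libraries lay above the 3 anti-IL-8 libraries in each of these genes, as in 11.3% of all tested genes.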

How the results depend on the processing

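The number of members past the threshold moved with the processing, and is given with the share of all tested genes that passed. In OE-MMP28 against control it was 1 (3.16%), but 0 with no filter on low counts (2.05%). It was 0 when only the 2 groups were fitted (3.25%), and 0 to 1 when each library was left out (1.79% to 3.89%). With anti-IL-8 against OE-MMP28 it was 0 (0%), but 3 with DESeq2 (13.2%), 3 with no filter (4.18%), 4 at an unadjusted p (29.3%) and 0 to 4 over libraries left out, the 4 without OE-MMP28 replicate 3 (25%). With anti-VEGFA against OE-MMP28 it was 0 (0.343%), but 2 at an unadjusted p (18.8%) and 0 to 2 over libraries left out, the 2 without OE-MMP28 replicate 3 (8.48%). With anti-IL-8 against control it was 2 (20.7%), but 1 without mitochondrial genes (20.7%) and 1 with FPKM at either pseudocount (17.1% and 17.2%). It was 5 with only the 2 groups (39.8%), 5 at an unadjusted p (35.9%) and 1 to 3 over libraries left out (7.94% to 26.2%). With anti-VEGFA against control it was 2 (11%), but 1 with FPKM at a pseudocount of 0.1 (8.91%) and 1 to 2 over libraries left out (4.02% to 15.7%). Between the antibodies it was 0 (0.199%), but 1 at an unadjusted p (15%). The cause of these differences was not tested. A reversal that touched a call occurred with GC and length offsets, where ZC3H12A with anti-IL-8 against control went from 0.04 to -0.31, and YWHAZ from -0.35 to 0.015. Over 966 member values under alternatives, 27 lost a call, 21 gained one and 1 reversed as above. The sign changed in 24, and apart from ZC3H12A these passed in neither fit. Samples with the same replicate number did not deviate together (r from -0.16 to 0.24 over 18 pairs, and -0.32 to 0.34 over 36 pairs of different numbers). With the replicate number as a block, 1, 0, 0, 2, 2 and 0 members passed in the 6 comparisons, and the genes passing with anti-IL-8 against OE-MMP28 went from 0 to 795 (4.95%). Leaving out a library assumes the remaining pair of its group to vary like the others.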

Other observations

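SUPT5H, the gene whose level followed ZFP36 most closely (r = 0.95 over the 12 libraries, 0.90 once group means were removed), encodes a transcription elongation factor and is a neighbor of ZFP36. It starts 26744 bases beyond the end of ZFP36 on the same strand of chromosome 19, with PLEKHG2 and RPS16 in between. Its log2 difference with anti-VEGFA against control was 0.41 (SE 0.13, edgeR adjusted p = 0.054), against 0.62 for ZFP36. Nothing further was tested on this pair.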
